A study of Mus musculus with 24 samples.

Results

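Acetylation of lysine 27 of histone H3 (H3K27ac) was compared between the newborn lens and the embryonic forebrain of the mouse, using every peak of the deposited lists of both tissues. The lens list held 20053 peaks and the forebrain list 26863, together 46916 of the 316828 intervals in all ChIP-seq and FAIRE lists of the series. No peak was left out and none was chosen by its value. Lenses were dissected on postnatal day 1 (P1) and forebrains at the embryonic stage E12.5, both from CD-1 mice, an outbred stock, with no genetic change or treatment given in the labels. The H3K27ac libraries of both tissues were made with antibody of the same maker and lot. Each tissue and mark had 1 library from whole dissected tissue, except forebrain Pax6, whose 2 libraries are given as 1 list, so there was no replicate spread and no test between the tissues, and tissue and age cannot be told apart.

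H3K27ac is placed by the acetyltransferases p300 and CBP on nucleosomes beside active promoters and active enhancers. Trimethylation of lysine 4 (H3K4me3) marks promoters, monomethylation of that lysine (H3K4me1) marks enhancers whether active or poised, and trimethylation of lysine 27 (H3K27me3) is the repressive mark of Polycomb complexes. Acetylation and methylation of lysine 27 exclude each other on the same histone tail. Promoter acetylation tends to be common to many cell types, while enhancer acetylation is known to vary among them. For this reason peaks of each list were sorted into 4 classes, by overlap of at least 1 bp with the H3K27ac list of the other tissue (shared or tissue-only) and with the H3K4me3 list of the same tissue (with or without H3K4me3).

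The labelled tissues carried their own marker RNAs, with 1 RNA library each of forebrain, lens epithelium and lens fibers. All 5 lens markers examined were higher in both lens libraries than in forebrain, and all 5 forebrain markers were higher in forebrain. Cryaa, the alpha-A crystallin, stood at 11820 RPKM in lens epithelium and 138921 RPKM in lens fibers against 18.2 RPKM in forebrain, and Foxe3, a lens epithelial factor, at 19.4, 0.433 and 0 RPKM. Emx1, a cortical factor, stood at 76.0 RPKM in forebrain, 0.0496 RPKM in lens epithelium and 0 in fibers. Forebrain and lens epithelium also held RNA of other cells, since all 6 markers of blood, endothelium and myeloid cells were above 0 in both. The alpha-globin gene Hba-a1 reached 956 RPKM in forebrain and 166 RPKM in lens epithelium, but the beta-globin gene Hbb-b1 153 and 173 RPKM. The endothelial genes Cdh5 and Pecam1 stood at 2.82 and 5.24 RPKM and at 5.83 and 10.7 RPKM in the same order. The myeloid gene Aif1 stood at 0.837 and 0.746 RPKM, and Csf1r at 1.35 and 2.24 RPKM. The blood markers thus differed from each other in direction, and so did the myeloid markers. In fibers Cdh5 was listed at 0 and the other 5 stood at 0.179 to 2.76 RPKM. The part of blood and vessel cells in the peak lists was not tested. Among the enzymes of acetylation, the acetyltransferase gene Ep300 (p300) was listed at 4.52 RPKM in forebrain, 4.24 RPKM in lens epithelium and 2.85 RPKM in fibers, and Crebbp (CBP) at 6.64, 7.11 and 5.04 RPKM. Hdac2, a deacetylase, was listed at 137 RPKM in forebrain, 52.4 RPKM in epithelium and 24.7 RPKM in fibers. Hdac1 and Hdac3, related deacetylases, stood at 3.01, 2.99 and 0.668 RPKM and at 42.3, 29.7 and 35.8 RPKM in the same order. Of the genes whose proteins bind acetylated histones, Brd2 stood at 37.2, 37.2 and 24.4 RPKM and Brd3 at 12.1, 7.90 and 3.63 RPKM.

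Most lens acetylation lay where the forebrain was acetylated as well, while most peaks of the full forebrain list had no lens counterpart. A forebrain H3K27ac peak lay on 68.1% of the lens peaks. In the other direction the share was 46.4%, leaving 6393 lens-only and 14392 forebrain-only peaks. The lists covered 11.8 Mb in lens and 19.6 Mb in forebrain. The 7.41 Mb acetylated in both made up 62.5% of the lens bases, 37.8% of the forebrain bases and 30.8% of their union. The forebrain list was longer, and with both lists cut to the 20053 strongest peaks the shares were 62.0% and 55.5%. Most forebrain peaks then had a lens counterpart. With lists of equal length both shares count the same overlaps. They differ only where several peaks of a list lie on the same peak of the other.

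The lists also differed in how much acetylation lay on H3K4me3. H3K4me3 of the same tissue was found at 64.1% of lens H3K27ac peaks (12852 peaks) and 46.6% of forebrain peaks (12506 peaks). The number of acetylated peaks with H3K4me3 was close in the 2 tissues, and the lists differed mainly in peaks without H3K4me3, 7201 in lens and 14357 in forebrain. With lists of equal length the H3K4me3 shares were 63.1% and 55.5%. H3K4me3 of the other tissue lay at 60.8% of lens and 46.3% of forebrain H3K27ac peaks. Seen from the H3K4me3 lists, H3K27ac of the same tissue lay on 69.0% of 16289 peaks in lens and on 78.4% of 15407 in forebrain. H3K4me3 peaks with acetylation were wider than those without, with medians of 903 against 438 bp in lens and 839 against 439 bp in forebrain.

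Acetylation on H3K4me3 was largely common to both tissues and acetylation away from it was largely not. Among lens peaks with H3K4me3, 84.9% (exact Clopper-Pearson 95% interval 84.3% to 85.6%) were shared with forebrain, against 38.1% (37.0% to 39.2%) of those without. In forebrain the shares were 80.1% (79.4% to 80.8%) and 17.1% (16.4% to 17.7%). These intervals hold counting error alone, since peaks of 1 library are not replicates. The largest class of the lens list was thus shared with H3K4me3 (10917 peaks, 54.4% of the list), and the largest of the forebrain list was forebrain-only without H3K4me3 (11908 peaks, 44.3%). The forebrain order turned in 3 settings. Shared peaks with H3K4me3 outnumbered forebrain-only peaks without it by 9213 to 6994 with equal lists, by 8195 to 7787 with peaks within 1 kb merged and by 11941 to 10342 with gaps of up to 1 kb allowed. Lens-only peaks without H3K4me3 numbered 4458 (22.2%), and lens-only peaks with H3K4me3 1935 (9.65%). In forebrain, 2484 peaks (9.25%) were forebrain-only with H3K4me3.

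Strength and sharing went together in both lists. Fold enrichment, the authors' value at the summit of each peak, was used only as a rank within its list, because the libraries were scaled separately. From the weakest to the strongest decile of the list, the share of lens peaks found in forebrain went from 42.5% to 96.0%, and that of forebrain peaks found in lens from 15.6% to 88.6%. The H3K4me3 split held at every strength. Lens peaks with H3K4me3 went from 67.7% to 97.9% and those without from 28.6% to 71.0%. Forebrain peaks with H3K4me3 went from 55.3% to 94.3%, and those without stayed at 36.2% or lower in the other 9 deciles and reached 61.3% in the strongest. At equal width and strength the difference remained. In each of 15 combinations of width and fold enrichment quartile that held at least 20 peaks of both kinds, the share was higher with H3K4me3, by a median of 38.6 percentage points in lens (24.9 to 47.4) and 52.4 points in forebrain (46.7 to 61.9). A weak peak can also be absent from the other list because the signal there missed the threshold, and the library depths are not stated in the labels or files used here.

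**Figure D1:**
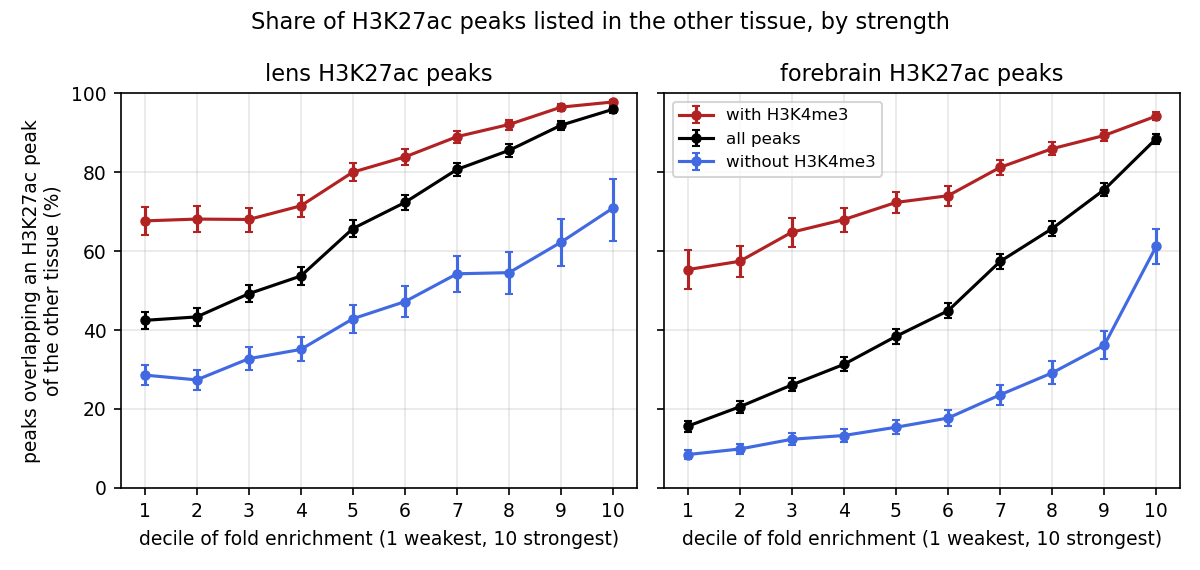
The share of H3K27ac peaks (vertical axis, percent) that overlap an H3K27ac peak of the other tissue is plotted against the decile of fold enrichment within the list, for lens (left) and forebrain (right), with red for peaks with H3K4me3 of the same tissue, blue for peaks without and black for all; bars are exact 95% intervals for counting error within 1 library. The red points lie above the blue ones in all 10 deciles of both lists.

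Forebrain peaks were wider than lens peaks. The median width was 527 bp in forebrain (exact 95% interval of the median 521 to 532 bp) and 465 bp in lens (460 to 470 bp), with quartiles of 357 and 869 bp and of 322 and 710 bp. The narrowest listed peak was 255 bp in forebrain and 228 bp in lens. The part of this lower limit and of library depth in the width difference was not tested. Wide domains were the larger difference, with 1030 forebrain peaks (3.83%) but 267 lens peaks (1.33%) of at least 2 kb, and 63 against 13 of at least 5 kb. All 13 lens peaks of that size and 50 of the 63 in forebrain carried H3K4me3, and 6 and 25 of them were tissue-only. Stronger peaks were wider in each list, with a Spearman rho of 0.61 over lens peaks and 0.69 over forebrain peaks, a description across peaks and not across samples.

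Shared peaks with H3K4me3 were the widest and strongest class of the lens list, with a median of 551 bp (544 to 557 bp) and a median fold enrichment percentile of 67.0. Shared lens peaks without H3K4me3 had a median width of 424 bp and percentile of 37.9. Lens-only peaks were narrower, at 362 bp with H3K4me3 and 366 bp without, with median percentiles of 37.9 and 24.0. In forebrain the medians were 670 bp for shared peaks with H3K4me3 and 604 bp for shared peaks without, and the percentiles 72.3 and 53.6. Forebrain-only peaks measured 471 bp with H3K4me3 (percentile 48.8) and 434 bp without (percentile 31.8). Peaks of at least 2 kb were most frequent in forebrain among shared peaks without H3K4me3, at 8.49%, against 4.58% of shared peaks with H3K4me3 and 2.23% of forebrain-only peaks without it.

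**Figure D2:**
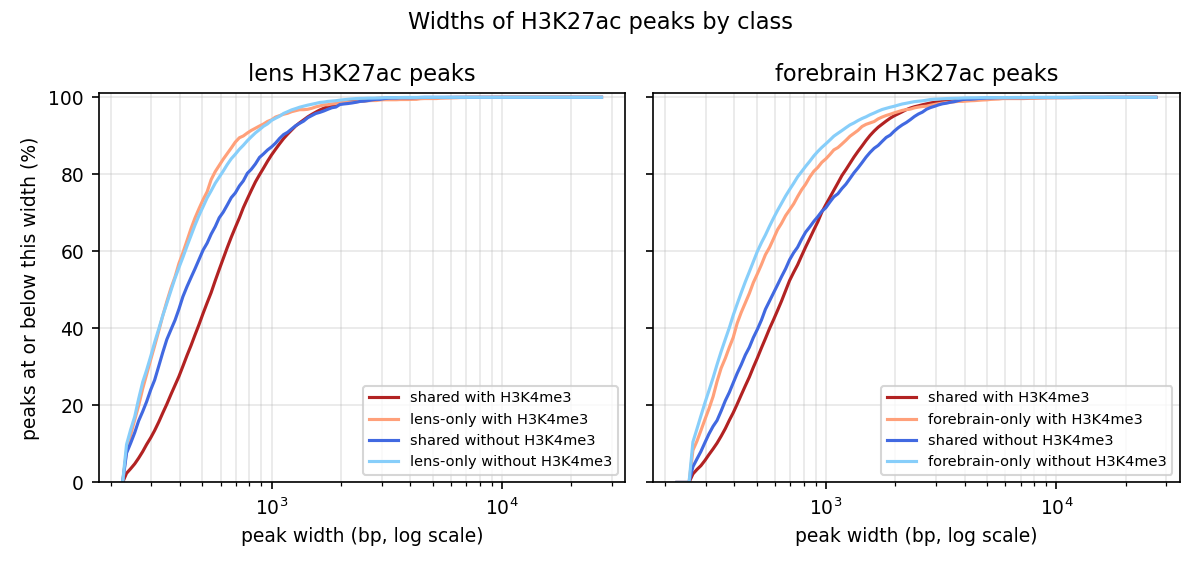
Cumulative share of peaks (vertical axis, percent) at or below each width (horizontal axis, bp on a log scale) is drawn for the 4 classes of lens (left) and forebrain (right) H3K27ac peaks. In lens the curve of shared peaks with H3K4me3, with a median of 551 bp, lies to the right of the curves of both lens-only classes, with medians of 362 and 366 bp, up to about 1 kb.

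The summits of overlapping lens and forebrain peaks lay near each other. The pairing by overlap sets a part of this, since the paired peaks had median widths of 537 bp in lens and 725 bp in forebrain. The 13660 shared lens peaks and 12471 shared forebrain peaks formed 14027 overlapping pairs, of which 10455 joined 1 peak of each list to 1 of the other. The median distance between the summits of a pair was 83 bp, and in 85.7% of pairs it was at most 500 bp. The lens peak was the narrower in 66.7% of pairs, with a median lens-to-forebrain width ratio of 0.81. Wide forebrain domains often corresponded to several lens peaks, since 1380 forebrain peaks overlapped 2 or more lens peaks (up to 11), while 355 lens peaks overlapped 2 or more forebrain peaks.

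Pairs with H3K4me3 kept a more similar place in the order of strength than pairs without it. In 10820 pairs (77.1%) both peaks carried H3K4me3 of their tissue, and in 2402 (17.1%) neither did. Across pairs of 1 peak with 1 peak the Spearman rho of fold enrichment was 0.48 for the 8326 with H3K4me3 in both tissues and 0.17 for the 1696 with it in neither, as a description over pairs of the same 2 libraries. Percentiles lay within 20 points of each other in 57.8% and 38.4% of all pairs of these kinds. Summits were a median of 73.5 bp apart with H3K4me3 and 148 bp apart without. Above the 90th percentile of both lists stood 999 pairs with H3K4me3 in both tissues (9.23%) and 43 pairs with it in neither (1.79%).

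Pairs with H3K4me3 in only 1 tissue were few, 393 in lens only and 412 in forebrain only. In the latter, forebrain peaks had a median width of 1414 bp against 361 bp for the lens peaks on them, and 40.0% of the lens peaks stood at least 50 percentile points lower than the forebrain peak, against 10.4% of all pairs. The median distance between their summits was 432 bp. A wide forebrain peak enters once for each lens peak on it, and 144 of these pairs joined 1 peak with 1 peak. In those the forebrain median was 636 bp against 346 bp in lens, 22.9% of lens peaks stood at least 50 points lower, and the summits were a median of 77 bp apart. In pairs with H3K4me3 in lens only the median widths were 472 bp in lens and 497 bp in forebrain. In the 289 of them that joined 1 peak with 1 peak they were 400 and 490 bp.

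**Figure D3:**
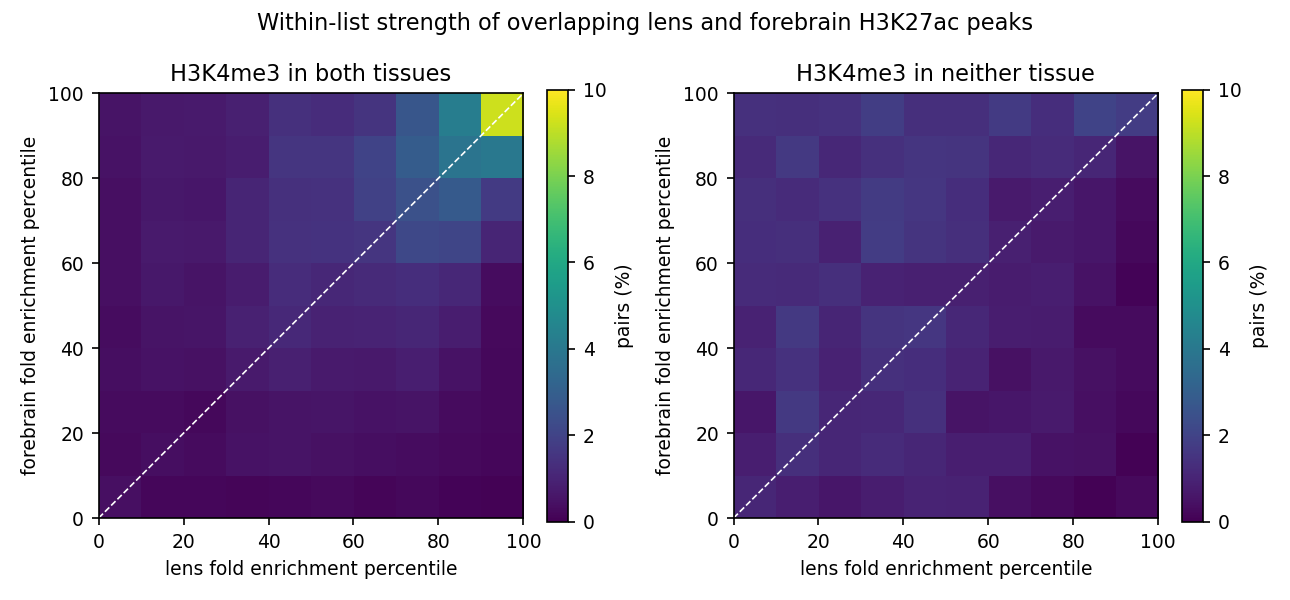
Overlapping peak pairs are binned by the fold enrichment percentile of the lens peak (horizontal axis) and of the forebrain peak (vertical axis), each within its own list, for pairs with H3K4me3 in both tissues (left) and in neither (right); colour gives the percent of pairs per bin and the dashed line marks equal percentiles. Pairs with H3K4me3 gather in the upper right, with 9.23% above the 90th percentile of both lists, and pairs without it are spread over the panel, with 1.79% there.

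Lens-only peaks lay closer to acetylation of the other tissue than forebrain-only peaks did. The nearest forebrain peak lay a median of 14249 bp from a lens-only peak, and 24.8% of lens-only peaks had a forebrain peak within 1 kb. For forebrain-only peaks the nearest lens peak was at a median of 41769 bp, with 12.9% within 1 kb. The forebrain list held more peaks to be near to, 26863 against 20053 in lens. The part of list length in these distances was not tested. Peaks with H3K4me3 were nearer, since 43.1% of lens-only and 27.1% of forebrain-only peaks with H3K4me3 had an acetylated neighbour of the other tissue within 1 kb, against 16.8% and 9.95% of those without. Within their own list, 58.0% of lens and 51.0% of forebrain peaks had another peak within 1 kb, so neighbouring peaks are not independent regions.

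Most tissue-only peaks with H3K4me3 also overlapped H3K4me3 of the other tissue. The class is set by the H3K27ac peak, and acetylation of the other tissue elsewhere on the same H3K4me3 peak was not counted. A peak of the other H3K27ac list lay within 1 kb of 43.1% of the lens-only and 27.1% of the forebrain-only ones. Of the 1935 lens-only peaks with lens H3K4me3, 74.0% also overlapped forebrain H3K4me3, and of the 2484 forebrain-only peaks with forebrain H3K4me3, 78.1% overlapped lens H3K4me3. Among shared peaks with H3K4me3 these shares were 96.4% and 98.5%. RNA polymerase II was listed less often at tissue-only than at shared peaks with H3K4me3, at 7.44% (6.31% to 8.70%) against 26.4% (25.6% to 27.2%) in lens and at 3.38% (2.71% to 4.17%) against 14.5% (13.8% to 15.2%) in forebrain. Over the whole lists polymerase of the same tissue lay at 15.7% of lens and 5.99% of forebrain H3K27ac peaks. The polymerase lists held 3332 peaks in lens and 1704 in forebrain, so these shares also depend on how much was called. Polymerase was listed more often on stronger peaks, and tissue-only peaks were the weaker. From the weakest to the strongest quartile, it went from 6.30% to 40.0% of all lens peaks with H3K4me3 and from 3.89% to 14.4% of lens-only ones. In forebrain it went from 1.10% to 24.5% and from 0.723% to 9.85%. The part of strength in the difference was not tested.

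Polycomb methylation was more frequent at tissue-only than at shared peaks with H3K4me3. Forebrain H3K27me3 islands overlapped 45.3% (43.3% to 47.3%) of forebrain-only peaks with H3K4me3, against 11.3% (10.7% to 11.9%) of the shared ones and 18.0% of the whole forebrain list. Lens H3K27me3 lay at 35.6% (33.7% to 37.5%) of the same forebrain-only peaks, against 5.36% of the shared ones and 13.2% of the list. In 30.4% of forebrain-only peaks with H3K4me3 the islands of both tissues were present. Lens-only peaks with H3K4me3 overlapped forebrain H3K27me3 in 35.7% of cases (33.5% to 37.8%), against 10.2% of shared ones and 15.5% of the lens list. Lens H3K27me3 overlapped 10.96% (9.60% to 12.4%) of them, against 4.38% of shared ones and 5.77% of the list.

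At both kinds of tissue-only peak with H3K4me3, H3K27me3 was listed more often in forebrain than in lens. At lens-only peaks H3K27me3 was mostly listed in the forebrain alone (491 peaks) or in both tissues (199), and in the lens alone at 13 peaks. At forebrain-only peaks it was listed in both tissues at 756 peaks, in the forebrain alone at 369 and in the lens alone at 128. The islands are broad, with a median of 5000 bp in forebrain and 3000 bp in lens, and an overlap of 1 bp can lie at their edge. Counting only peaks whose summit base lay inside an island, forebrain H3K27me3 held 36.6% and lens H3K27me3 26.0% of forebrain-only peaks with H3K4me3, and 31.4% and 8.89% of lens-only peaks with H3K4me3. With gaps of up to 1 kb allowed in every overlap, the shares were 64.8% and 59.4% of forebrain-only and 57.6% and 28.4% of lens-only peaks. Forebrain islands covered 185 Mb and lens islands 124 Mb, so the share of a peak class in either list also depends on how much was called. Whether both marks lay in the same cells cannot be told apart in whole tissue.

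Stronger forebrain-only peaks with H3K4me3 overlapped H3K27me3 more often than weak ones. Between the lowest and the highest quartile by forebrain fold enrichment, the share in forebrain islands went from 41.2% (37.1% to 45.5%) to 56.0% (51.3% to 60.6%) and that in lens islands from 26.8% (23.1% to 30.7%) to 55.8% (51.1% to 60.4%). Strong peaks are also wider, and the part of width in this was not tested. The forebrain-only peaks with their summit inside a lens island had a median width of 695 bp, and those without 410 bp. Over all forebrain peaks with H3K4me3, shared ones included, the order was the opposite, with forebrain islands at 26.6% in the lowest and 14.2% in the highest quartile and lens islands at 14.2% and 10.6%. Over all lens peaks with H3K4me3, forebrain islands went from 25.3% to 8.02%. At lens-only peaks with H3K4me3 the share in forebrain islands was 38.6% in the weakest, 31.0% and 33.0% in the middle and 50.3% (42.5% to 58.1%) in the strongest quartile, the last of 167 peaks.

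**Figure D4:**
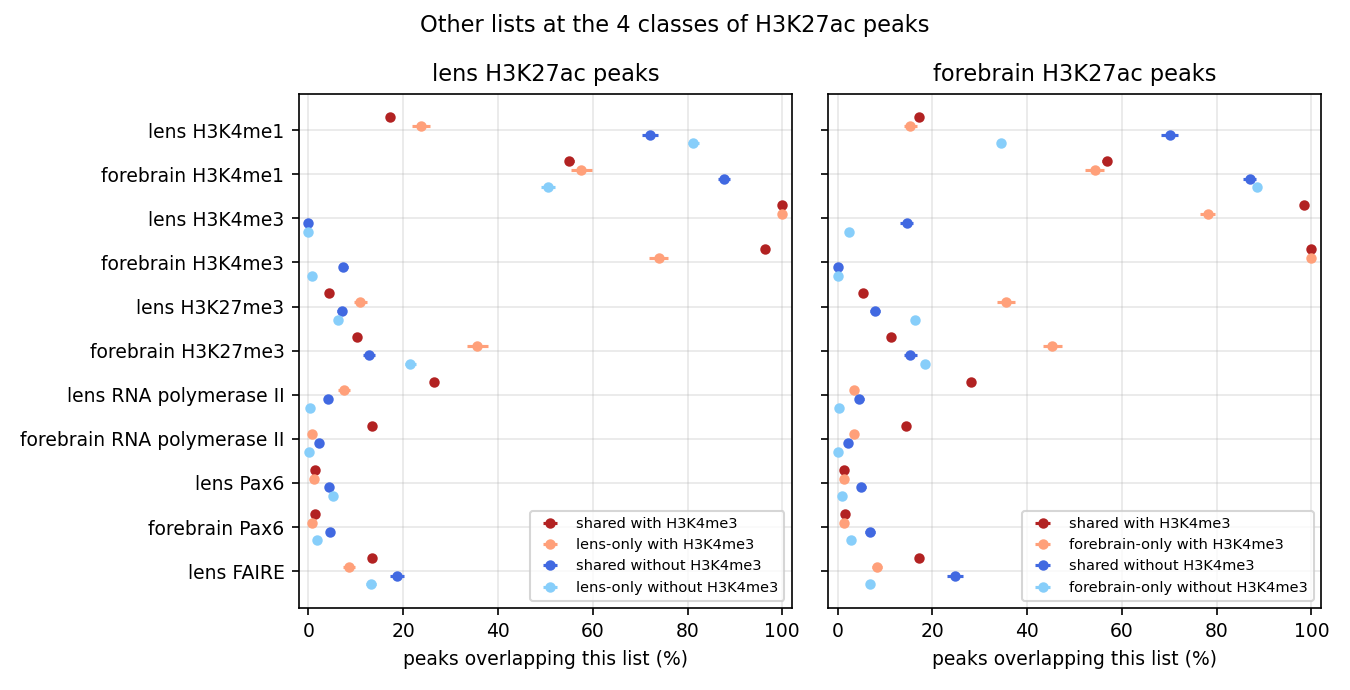
The percent of lens (left) and forebrain (right) H3K27ac peaks that overlap each other list by at least 1 bp is shown for the 4 classes; bars are exact 95% intervals for counting error, and several are smaller than the points. Tissue-only peaks with H3K4me3 (salmon) lie farthest to the right at forebrain H3K27me3, at 35.7% in lens and 45.3% in forebrain, and tissue-only peaks without H3K4me3 (light blue) lie at H3K4me1 of their own tissue in 81.2% and 88.5% of cases.

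Peaks without H3K4me3 had the enhancer mark. H3K4me1 of the same tissue covered 81.2% (80.0% to 82.4%) of lens-only and 88.5% (87.9% to 89.1%) of forebrain-only peaks without H3K4me3. Over the whole lists the shares were 39.6% in lens and 73.4% in forebrain. At shared peaks with H3K4me3 they were 17.2% and 56.8%. H3K4me1 of the other tissue lay at 58.8% of all lens and 29.5% of all forebrain peaks. It was also present at part of the tissue-only sites without H3K4me3, with forebrain H3K4me1 at 50.7% (49.2% to 52.1%) of lens-only and lens H3K4me1 at 34.4% (33.5% to 35.2%) of forebrain-only peaks. The forebrain H3K4me1 list is the larger, with 146 Mb against 74.1 Mb in lens. With all lists, H3K27ac and H3K4me3 included, held to equal length, the classes themselves changed (4987 lens-only and 6994 forebrain-only peaks without H3K4me3). Forebrain H3K4me1 then covered 35.5% of the lens-only and 69.0% of the forebrain-only peaks, and lens H3K4me1 80.5% and 35.4%. None of H3K4me1, H3K4me3 and H3K27me3 of the other tissue was listed at 40.6% of lens-only and 53.1% of forebrain-only peaks without H3K4me3.

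A part of the acetylated sites had neither methyl mark of lysine 4 in their own tissue. This held for 18.8% of lens-only and 27.9% of shared lens peaks without H3K4me3, and for 11.5% and 13.0% in forebrain. Polycomb methylation was less frequent at tissue-only peaks without H3K4me3 than at those with it. Forebrain H3K27me3 lay at 21.5% of lens-only and 18.4% of forebrain-only peaks without H3K4me3, and lens H3K27me3 at 6.17% and 16.3%.

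Pax6, the transcription factor that both tissues need for their development, was bound at few acetylated peaks, and more often at those without H3K4me3. Lens Pax6 peaks overlapped 2.56% of all lens H3K27ac peaks, 5.25% (4.61% to 5.94%) of lens-only and 4.27% (3.54% to 5.09%) of shared peaks without H3K4me3, and 1.30% of shared peaks with it. Forebrain Pax6 overlapped 2.57% of all forebrain peaks, 2.78% (2.49% to 3.09%) of forebrain-only and 6.78% (5.81% to 7.85%) of shared peaks without H3K4me3. With H3K4me3 the forebrain shares were 1.45% of forebrain-only and 1.57% of shared peaks. The Pax6 lists held 3815 peaks in lens and 3536 in forebrain, so the shares also depend on how much was called. Pax6 of the other tissue lay at 1.78% of lens and 1.55% of forebrain H3K27ac peaks. At lens-only peaks without H3K4me3 it lay at 1.79%, and at the matching forebrain-only peaks at 0.974%.

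Pax6 and open chromatin were more frequent at strongly than at weakly acetylated sites without H3K4me3. Among lens-only peaks of this kind, lens Pax6 overlapped 3.06% (2.38% to 3.87%) in the weakest quartile of the lens list and 19.6% (14.4% to 25.7%) in the strongest, which held 204 of them. FAIRE regions of the lens, sites poor in nucleosomes, overlapped 8.31% (7.19% to 9.55%) and 36.3% (29.7% to 43.3%). Forebrain Pax6 at forebrain-only peaks without H3K4me3 went from 1.82% (1.46% to 2.23%) to 6.42% (4.93% to 8.18%). The rise in lens was not particular to lens-only peaks. Shared lens peaks without H3K4me3 went from 2.93% to 10.4% for lens Pax6 and from 12.4% to 32.2% for FAIRE. Over all lens peaks with H3K4me3, FAIRE went from 9.19% to 16.1%, while lens Pax6 stood at 1.76% and 1.82%. Stronger peaks are wider, and how far width accounts for these shares was not tested. Lens FAIRE lay at 13.6% of all lens H3K27ac peaks. Among forebrain peaks without H3K4me3 it lay at 9.95% in all, at 24.8% (23.1% to 26.5%) of those shared with lens and 6.89% (6.45% to 7.36%) of the forebrain-only ones.

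The X chromosome stood apart in both lists. It held 318 lens peaks, 1.59% of the list (1.42% to 1.77%), and 630 forebrain peaks, 2.35% (2.17% to 2.53%), although the H3K4me3 lists held nearly equal shares there, 3.25% in lens and 3.28% in forebrain. Of the X-linked lens peaks 83.0% (78.4% to 87.0%) were shared, above the range of 62.6% to 73.5% over the 19 autosomes. Of the X-linked forebrain peaks 38.6% (34.8% to 42.5%) were shared, below the autosomal range of 40.0% to 59.1%. The X-linked lens peaks without H3K4me3 numbered 87, of which 29 were lens-only, against 282 and 230 in forebrain. The labels do not give the sex of the animals.

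The strongest peaks of both lists lay on H3K4me3 and were shared. All 5 peaks with the highest fold enrichment in lens and all 5 in forebrain overlapped H3K4me3 of both tissues and H3K27ac of the other. The strongest lens peak, chr19:5802706-5803590 with coordinates on mm9 here and throughout, reached a fold enrichment of 24.3. It was paired with the fourth strongest forebrain peak, chr19:5802710-5805034, with a fold enrichment of 49.7 and a summit 20 bp away. RNA polymerase II of both tissues was listed there. The strongest forebrain peak, chr1:64168320-64169465, had a fold enrichment of 56.0. Other pairs near the top of both lists were a lens peak at chr5:123588335-123590589 on a forebrain peak of 5452 bp (99.97th percentile in both lists) and a lens peak at chr2:156004868-156005938 with its forebrain partner's summit 11 bp away. Which genes lie there was not analysed here.

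The 3 strongest lens-only peaks with H3K4me3 lay in 2 places. The strongest, chr17:86012782-86019838, was 7057 bp wide with a fold enrichment of 20.9, in the 99.92nd percentile of the lens list, and the nearest forebrain H3K27ac peak was 522298 bp away. Lens polymerase was listed on it, and in forebrain H3K27me3 and H3K4me1 were listed without H3K4me3. A neighbouring lens-only peak, chr17:86020169-86023686, lay directly beside it and also had forebrain H3K27me3. Between these in strength, chr3:55586434-55591835, was 5402 bp wide and carried Pax6 in both tissues, lens FAIRE and lens polymerase, with forebrain H3K27me3. All 3 strongest lens-only peaks with H3K4me3, at 2 places, thus overlapped forebrain H3K27me3 islands. The share was 35.7% over all lens-only peaks with H3K4me3 and 50.3% over those in the strongest quartile of the lens list. The 3 strongest lens-only peaks without H3K4me3 were chr10:61679564-61681088, chr10:20802594-20803554 and chr10:76262208-76266588, with fold enrichments of 14.6, 13.6 and 12.9. Each overlapped lens Pax6, lens FAIRE and lens H3K4me1, and the second also forebrain Pax6, H3K4me1 and H3K27me3.

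The forebrain-only region chr12:50485243-50504833, acetylated over 19591 bp with a fold enrichment of 29.4, had its nearest lens H3K27ac peak 1244921 bp away. It carried H3K4me3 and H3K27me3 of both tissues together with forebrain Pax6 and polymerase. A series of neighbouring forebrain peaks on chromosome 7 included the widest peak of either list, chr7:86641114-86668037 (26924 bp), which overlapped lens H3K27ac. It was followed by the forebrain-only peaks chr7:86675907-86684161, with H3K4me3, and chr7:86686225-86696143, without it, with fold enrichments of 30.6 and 31.9. H3K27me3 of both tissues was listed on all 3. The strongest forebrain-only peak with H3K4me3, chr10:79761799-79764425 (2627 bp, fold enrichment 35.6), also lay in H3K27me3 of both tissues, and the nearest lens peak was 5769 bp away. By contrast, chr14:55672229-55675684 and chr4:45830635-45834762, next in strength among forebrain-only peaks without H3K4me3, overlapped forebrain H3K4me1 and none of the other lists.

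The widest lens peak, chr2:105509090-105518360, spanned 9271 bp with a fold enrichment of 16.5 and overlapped forebrain H3K27ac, H3K4me3 of both tissues, forebrain Pax6 and H3K27me3, lens FAIRE and lens polymerase. Some overlapping pairs held opposite places in the 2 lists. At chr9:110033214-110034142 the lens peak stood at the 95.9th percentile (fold enrichment 11.5) and the forebrain peak on it at the 0.404th (3.14), with H3K4me3 in neither tissue and lens FAIRE and H3K4me1 present. The reverse was largest at chr1:88399803-88402965, a forebrain peak of 3163 bp at the 98.95th percentile, where a lens peak of 261 bp stood at the 0.212th and the summits were 1637 bp apart. In another such pair the forebrain peak, chr13:83869020-83881921, was 12902 bp wide and its lens partner 293 bp. Their summits were 9347 bp apart, so the 2 ranks there do not describe the same place.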

How the data were processed

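The authors used MACS2 and mm9 for the H3K27ac, H3K4me3, Pax6 and polymerase peaks, per the submitters' processing notes. Version, threshold and input library are not stated there. The deposited peak lists give a fold enrichment (a ratio over control) at the summit and a −log10 q-value. The largest deposited q-value was 0.00931 in the lens and 0.00844 in the forebrain H3K27ac list. H3K4me1 and H3K27me3 islands came from SICER, per the submitters' processing notes. Per the labels in the list names, the authors took a window of 200 bp, a gap of 600 bp and an FDR, an adjusted p-value, of 0.001. The deposited island tables hold counts of ChIP and control reads, used only to find islands rich in control reads. The authors deposited RNA levels as RPKM, and their scaling between libraries is not known. The depth of the ChIP libraries is not known either.

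Lists were joined in Python 3.11.15 with pandas 2.3.3. A shared peak overlapped the other list by at least 1 bp, checked against bedtools 2.31.1 and on simulated intervals. Fold enrichment was turned into a percentile within its list, ties sharing their mean rank. Intervals are exact (Clopper-Pearson for shares, order statistics for medians, scipy 1.17.1). Named peaks were the 5 strongest and 3 widest per list, the 3 strongest of each tissue-only class, and the pairs ranked highest in both lists or differing most in percentile, and the text gives a part of them. The comparison and its lists were chosen with earlier results of these data known. Every group compared had 1 list. The alternatives tried were stricter thresholds, equal lists, other overlap rules, merging and leaving out islands rich in control reads. No mm9 annotation or sequence was used here.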

Additional observations from a re-analysis of the deposited data

How the results depend on the processing

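Across the alternatives, the share found in the other tissue was higher with H3K4me3 than without in all 7 settings of both lists, by 44.1 to 52.0 points in lens and 61.0 to 66.8 points in forebrain. The lens list had the higher shared share in all 7 (by 6.49 to 24.2 points) and the higher share with H3K4me3 in all 7 (by 7.56 to 18.5 points). The forebrain list was the longer in every setting but equal lists. Overlaps are common to both lists, so the shorter list tends to have the higher shared share whatever the setting. With equal lists the shared shares differ only where several peaks of a list lie on the same peak of the other. Of 144 recomputed values, 39 stayed inside the counting interval of the deposited lists, and the median percentiles are tied in steps, so that a move of 1 step counts as outside. For the 14 shares and medians fixed first, the values that left the interval follow, lens list before forebrain list. The other results, on H3K27me3 and H3K4me1 at tissue-only peaks, are given as ranges in the last paragraph.

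With a q-value of at most 1e-05, the median widths were 517 bp and 582 bp, the shared shares were 71.5% and 47.3%, the shares with H3K4me3 were 68.9% and 50.7%, the shared share among peaks with H3K4me3 was 77.4% in forebrain, the shared shares among peaks without H3K4me3 were 41.1% and 16.4%, the median percentiles of shared peaks were 60.6 and 68.5 and the median percentiles of peaks with H3K4me3 were 60.6 and 65.4. With equal lists, the median width was 641 bp in forebrain, the shared shares were 62.0% and 55.5%, the shares with H3K4me3 were 63.1% and 55.5%, the shared shares among peaks with H3K4me3 were 79.2% and 82.8%, the shared shares among peaks without H3K4me3 were 32.6% and 21.6%, the median percentile of shared peaks was 64.4 in forebrain and the median percentile of peaks with H3K4me3 was 62.7 in forebrain. Where an overlap had to cover 0.5 of the shorter interval, the shared shares were 66.2% and 45.4%, the shares with H3K4me3 were 63.1% and 45.7%, the shared share among peaks with H3K4me3 was 84.1% in lens, the shared shares among peaks without H3K4me3 were 35.7% and 16.3% and the median percentile of shared peaks was 70.4 in forebrain. With gaps of up to 1 kb, the shared shares were 76.0% and 53.3%, the shares with H3K4me3 were 69.7% and 52.6%, the shared shares among peaks with H3K4me3 were 90.9% and 84.5%, the shared shares among peaks without H3K4me3 were 41.7% and 18.8%, the median percentiles of shared peaks were 59.1 and 66.4 and the median percentiles of peaks with H3K4me3 were 59.1 and 65.4. With peaks within 1 kb merged, the median widths were 764 bp and 856 bp, the shared shares were 73.4% and 51.0%, the shares with H3K4me3 were 69.7% and 51.1%, the shared shares among peaks with H3K4me3 were 89.2% and 83.6%, the median percentiles of shared peaks were 60.5 and 68.6 and the median percentiles of peaks with H3K4me3 were 62.7 and 67.3. Without peaks in control-rich islands (23 in lens and 39 in forebrain), the median percentile of peaks with H3K4me3 was 63.2 in lens. Counting the summit base only, an alternative added after seeing the data, the shared shares were 64.7% and 42.9%, the shares with H3K4me3 were 62.2% and 44.3%, the shared shares among peaks with H3K4me3 were 82.7% and 78.1% and the shared shares among peaks without H3K4me3 were 35.1% and 14.9%.

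H3K27me3 at tissue-only peaks with H3K4me3 varied most with the overlap rule. Forebrain islands held 33.4% to 64.8% of forebrain-only and 29.4% to 57.6% of lens-only peaks, and lens islands 22.8% to 59.4% and 8.45% to 28.4%. H3K4me1 of the same tissue held 79.2% to 85.1% of lens-only and 69.0% to 91.5% of forebrain-only peaks without H3K4me3, and that of the other tissue 35.5% to 53.9% and 32.2% to 36.3%. No depth is known, so peaks missing from a list may lie under its threshold. No paired analysis was possible because each tissue and mark had 1 list and the results come from no test.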
